A study of Mus musculus with 8 samples.

Results

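The transcripts of 8 genes of the RNA editing machinery were followed in liver cells of 8 mice: Adar, Adarb1, Adat1, Adat2, Adat3, Apobec1, Apobec3 and A1cf. They were chosen by gene symbol, and all 8 of them are among the 25229 genes counted in every library. All 8 passed the filter on low counts, which left 14728 genes for testing. Not every member is a deaminase: A1cf is the RNA-binding partner of Apobec1, and Adat3 is the non-catalytic partner of Adat2.

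The mice were C57BL/6. All were Ifih1-/-, without the sensor MDA5 that detects long double-stranded RNA, and all carried Alb-Cre. This Cre recombinase is driven by the albumin promoter and acts in hepatocytes. Whether other liver cells kept their Adar alleles was not tested. The groups differ in Adar1, the label's name for Adar: 3 mice were wt/wt, 2 were wt/flox and 3 were flox/flox. The 3 flox/flox samples present were all analysed, although the design text gives that group as n = 2. In each group replicate 1 was 11 weeks old and replicate 2 was 9 weeks old, and replicate 3 of wt/wt and of flox/flox was 7 weeks old. Livers were dissociated with collagenase, hepatocytes were enriched by slow centrifugation and Percoll, and rRNA-depleted, strand-specific libraries were sequenced, per the labels' protocols. The design compares the genotypes to see what hepatocyte Adar loss does in mice that have no MDA5. Gene counts measure the transcripts of the editing genes, not the editing of RNA, which was not analysed here.

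RNA editing changes single bases in a transcript after it has been copied from DNA. ADAR1, made from Adar, and ADAR2, made from Adarb1, turn adenosine into inosine in double-stranded RNA, and editing by ADAR1 keeps a cell's own RNA from being read as viral by MDA5. ADAR1 exists as a long, interferon-inducible form and a shorter constitutive form that start at different promoters of the same gene. The Adat proteins deaminate adenosine in tRNA: Adat1 next to the anticodon, and the Adat2 and Adat3 pair at the wobble position that reads the last base of a codon. APOBEC1, with A1cf or Rbm47, turns cytidine into uridine in the Apob transcript and so creates the stop codon that gives the short form of apolipoprotein B. In mice this takes place in liver as well as in intestine. APOBEC3 deaminates cytidine in single-stranded DNA and restricts retroviruses.

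Library facts that touch these results are few. Sense reads in genes ranged from 75875711 to 132303735 per library, and counts are given below as CPM, sense reads scaled by the TMM-adjusted library size. Transcripts of 2 flox/flox libraries went against their labelled sex. Replicate 1, labelled female, had 31 reads of Xist, which coats the inactive X chromosome, and 21255 reads of the Y-linked genes Ddx3y, Eif2s3y, Kdm5d and Uty. Replicate 2, labelled male, had 246646 and 0. The age and replicate number attached to these 2 libraries are therefore uncertain as well; whether their labels were exchanged was not tested. The fit used the sex shown by the transcripts as a term. All wt/wt libraries carry one batch mark and all wt/flox and flox/flox libraries another, so genotype and batch cannot be told apart in any comparison with wt/wt, whereas flox/flox and wt/flox share a mark. The material had hepatocyte transcripts throughout, with Alb, the albumin gene, at 63583 to 171671 CPM, while the T cell marker Cd3e had 3 to 49 reads and the B cell marker Ms4a1 0 to 28 reads per library. In bulk counts, fewer cells of a type and less RNA per cell cannot be told apart.

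Per kilobase of exon, which allows levels of different genes to be compared, A1cf stood far above the others. Its level was 74.1 ± 9.15 CPM per kb (SD, n = 8 libraries), and it lay at the 96.1 to 97.1 percentile of tested genes. Apobec1 followed at 6.42 ± 4.63 and Adar at 4.51 ± 1.34 CPM per kb, and these neighbours did not differ beyond their spread: Apobec1 was above Adar in 4 of 8 libraries. Adat2 had 1.47 ± 0.311, Adat1 1.25 ± 0.139 and Adarb1 1.07 ± 0.158 CPM per kb. Adat2 was above Adat1 in 5 of 8 libraries, whereas Adat1 was above Adarb1 in 8 of 8, by a ratio of 1.01 to 1.29. Adat3, at 0.524 ± 0.124, and Apobec3, at 0.0634 ± 0.0474 CPM per kb, came last in that order in all 8 libraries. When the longest annotated transcript replaced the union of exons as the length, Adarb1 took the fourth place with 1.81 CPM per kb and Adat2 the sixth with 1.47. Adarb1 reached 0.128 to 0.437 of the Adar level per kb across libraries.

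**Figure D1:**
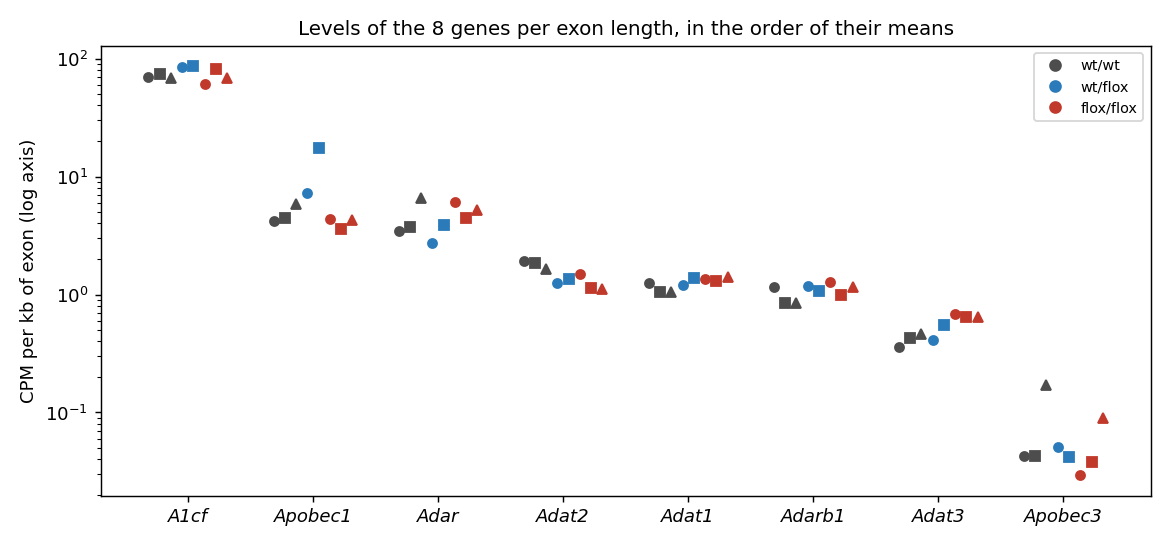
Level of each gene in CPM per kb of exon (log axis) in each of the 8 libraries, coloured by Adar genotype, with circles for replicate 1, squares for replicate 2 and triangles for replicate 3. A1cf lies above all others, the levels of Apobec1 and Adar interleave, and Apobec3 is lowest in every library.

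Against this background few of the 8 genes differed between genotypes. In flox/flox against wt/wt, 29.1% of the tested genes passed an adjusted p of 0.05 in edgeR's quasi-likelihood test, 14.5% higher and 14.6% lower, and 0 of the 8 members did. At an unadjusted p under 0.05 edgeR counted 2 of them, Adat2 and Apobec3, where 42.8% of all tested genes had such a p. DESeq2 counted 2 members and limma-voom 4 at that unadjusted threshold. At an adjusted p under 0.05 DESeq2 called 0 members and limma-voom 1, Apobec3. The background of this comparison fell to 17.8% without wt/wt replicate 3, to 12.3% without flox/flox replicate 1 and to 6.94% without the 2 libraries at odds with their labelled sex, and in each of these fits 0 members were called by edgeR. In the fit without wt/wt replicate 3, flox/flox replicates 2 and 3 were the only female libraries by transcripts. With the sex term, flox/flox against wt/wt then compares flox/flox replicate 1 alone with wt/wt replicates 1 and 2. In flox/flox against wt/flox the background was 0.0% (3.56% at an unadjusted p under 0.05), and again 0 of 8 members were called. There edgeR counted 1 at an unadjusted p under 0.05, Apobec1, which DESeq2 called at an adjusted p under 0.05 and limma-voom did not. In wt/flox against wt/wt, 14.5% of genes passed, 7.58% higher and 6.9% lower, and Apobec1 alone was called among the members, as higher in wt/flox. Without wt/wt replicate 1 or 2 or either wt/flox library, 0 genes were called in that comparison. Groups whose libraries did not overlap were common: 45.0% of all tested genes in flox/flox against wt/wt, among them Adat1, Adat2 and Adat3, 27.3% in flox/flox against wt/flox, and 55.1% in wt/flox against wt/wt.

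**Figure D2:**
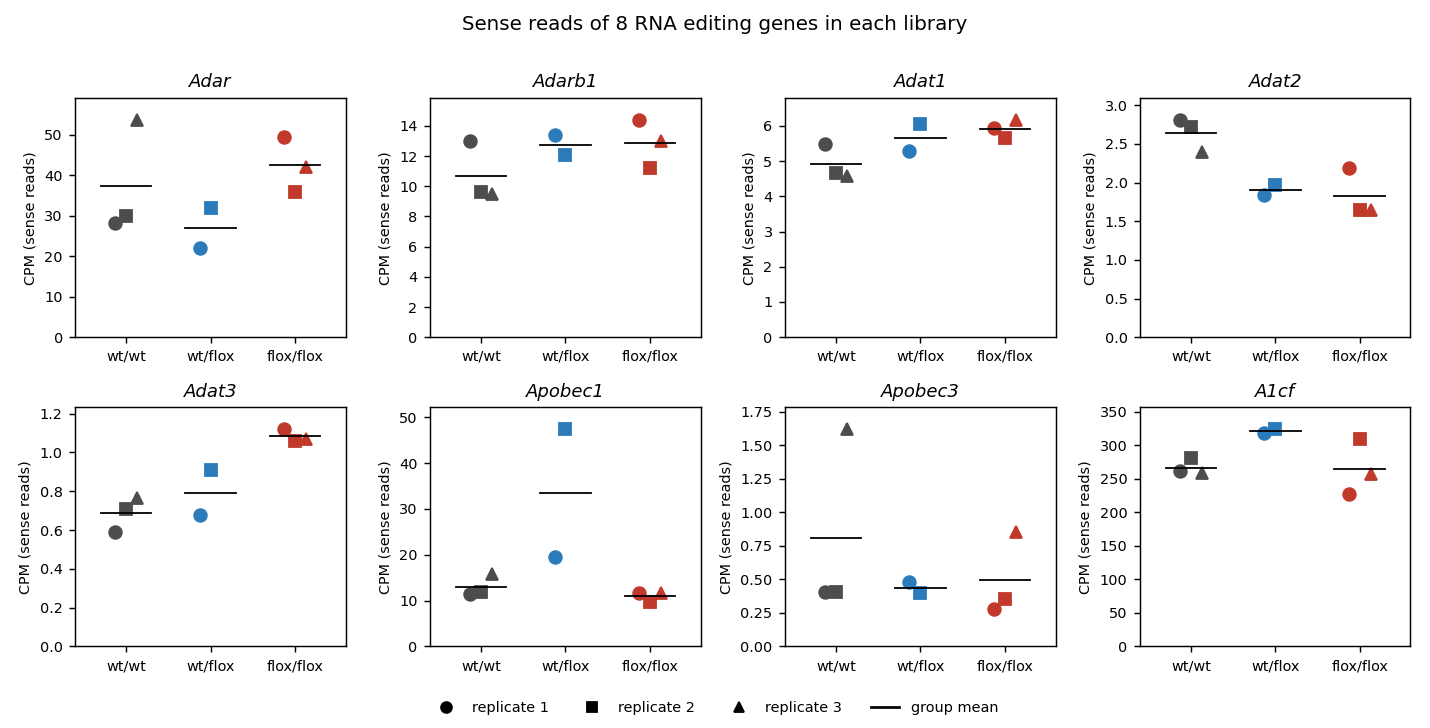
CPM of sense reads of each gene (y axis, from 0, a scale for each gene) in the wt/wt, wt/flox and flox/flox libraries; each point is a library, its shape the replicate, and the line the group mean. Adar does not separate flox/flox from wt/wt, Adat3 is highest in the 3 flox/flox libraries, and Apobec1 is highest in the 2 wt/flox libraries.

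Adar (ENSMUSG00000027951, chromosome 3, 89715022 to 89753446, plus strand, GRCm38), the floxed gene, was not detectably lower in flox/flox livers. It had 28.1, 30.0 and 53.6 CPM in wt/wt replicates 1 to 3, from 2770, 3549 and 5873 reads. The 2 wt/flox libraries had 22.0 and 31.8 CPM, from 1880 and 2239 reads. The flox/flox libraries had 49.4, 35.9 and 42.0 CPM, from 4446, 4018 and 5542 reads. All flox/flox values lay above both wt/flox values and inside the range of wt/wt, where the female replicate 3 was the highest of all libraries.

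The group means of Adar were 42.4 ± 6.74 CPM in flox/flox, 26.9 ± 6.93 in wt/flox and 37.2 ± 14.2 in wt/wt (SD, n = 3, 2 and 3). The fitted log2 fold change of flox/flox against wt/wt was 0.15 (SE 0.27, 95% interval -0.47 to 0.78, edgeR adjusted p = 0.693). Against wt/flox it was 0.50 (SE 0.33, interval -0.29 to 1.28, edgeR adjusted p = 0.993), and wt/flox against wt/wt gave -0.35 (SE 0.32, interval -1.10 to 0.40, edgeR adjusted p = 0.489). Single libraries set the sign of the first 2 values. Without flox/flox replicate 1, one of the libraries at odds with their labelled sex, the log2 fold change of Adar was -0.47 against wt/wt (edgeR adjusted p = 0.202) and -0.36 against wt/flox (edgeR adjusted p = 0.833), and without wt/wt replicate 3 it was 0.76 against wt/wt (edgeR adjusted p = 0.0617). With both contradicted libraries left out, only flox/flox replicate 3 remained, which gives no spread of its own. Adar then gave -0.36 against wt/wt and -0.28 against wt/flox. In the fits without flox/flox replicate 1, the remaining flox/flox libraries were female by transcripts and both wt/flox libraries male. Sex and genotype were then separated only by wt/wt replicate 3, the one female wt/wt library, at 53.6 CPM. Before adjustment for sex, flox/flox replicates 2 and 3, at 35.9 and 42.0 CPM, still lay above both wt/flox libraries, at 22.0 and 31.8. Whether the negative values reflect genotype or sex was not tested. In the fit without wt/wt replicate 3, flox/flox replicates 2 and 3 were the only female libraries. With the sex term, the value of 0.76 rests on flox/flox replicate 1 alone, at 49.4 CPM, against wt/wt replicates 1 and 2. Which exons are floxed is not stated in the labels, and a gene total also counts exons outside the floxed part and transcripts of cells without Cre.

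**Figure D3:**
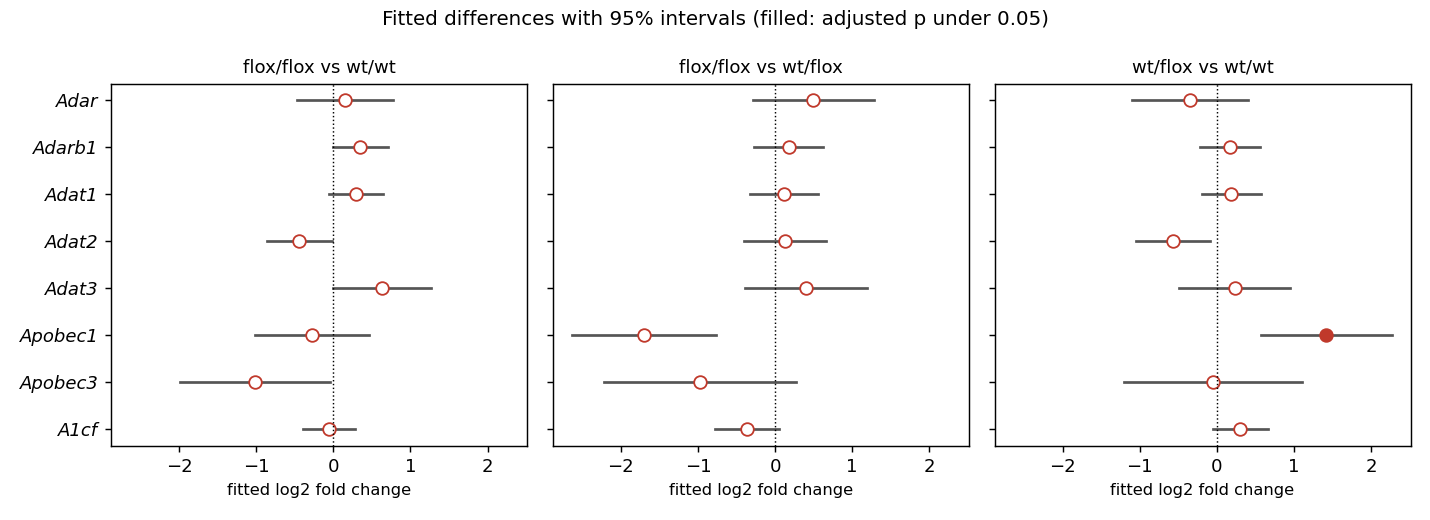
Fitted log2 fold change (x axis) of each of the 8 genes in the 3 comparisons, with 95% intervals; a filled point marks an edgeR adjusted p under 0.05. The Adar interval runs from -0.47 to 0.78 in flox/flox against wt/wt, and the filled point is Apobec1 in wt/flox against wt/wt, at 1.42.

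Reads on the strand opposite to Adar were also counted. Their count was 214, 265 and 465 in wt/wt livers, 105 and 146 in wt/flox livers, then 338, 303 and 415 in flox/flox livers. As a share of all reads of the gene this was 7.17%, 6.95% and 7.34% in wt/wt livers, 5.29% (exact 95% interval 4.35% to 6.37%) and 6.12% in wt/flox livers, then 7.07%, 7.01% and 6.97% in flox/flox livers. The share was steady in the 6 libraries of both homozygous groups, and the 2 wt/flox libraries had the lowest values. The share of the median tested gene was also lowest in these 2, at 5.89% and 6.63%, against 6.66% to 7.26% in the other 6. Adar's percentile among tested genes was lowest there too, at 44.2 and 45.3. Group means were 7.01% ± 0.0494 in flox/flox and 7.15% ± 0.195 in wt/wt (SD, n = 3 each), a difference of -0.14 percentage points (two-sided exact permutation p = 0.4, where 3 against 3 cannot go below 0.1). Over all gene reads the antisense share was 6.43% to 7.78%, and Adar lay at the 44.2 to 55.2 percentile of tested genes, so its share was that of a typical gene in these libraries. In the same test on antisense counts, 21.4% of 12938 genes passed in flox/flox against wt/wt, 0.0% in flox/flox against wt/flox and 6.92% in wt/flox against wt/wt. No member passed in any of them; Adar gave log2 fold changes of 0.11 (SE 0.29), 0.78 (SE 0.37) and -0.68 (SE 0.36), with edgeR adjusted p = 0.817, 0.867 and 0.252. Chrnb2, a nicotinic receptor subunit gene transcribed from the opposite strand, shares 1365 exonic bases with Adar (16.81% of the exonic bases of Adar). Chrnb2 had 1.26 to 3.14 CPM.

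**Figure D4:**
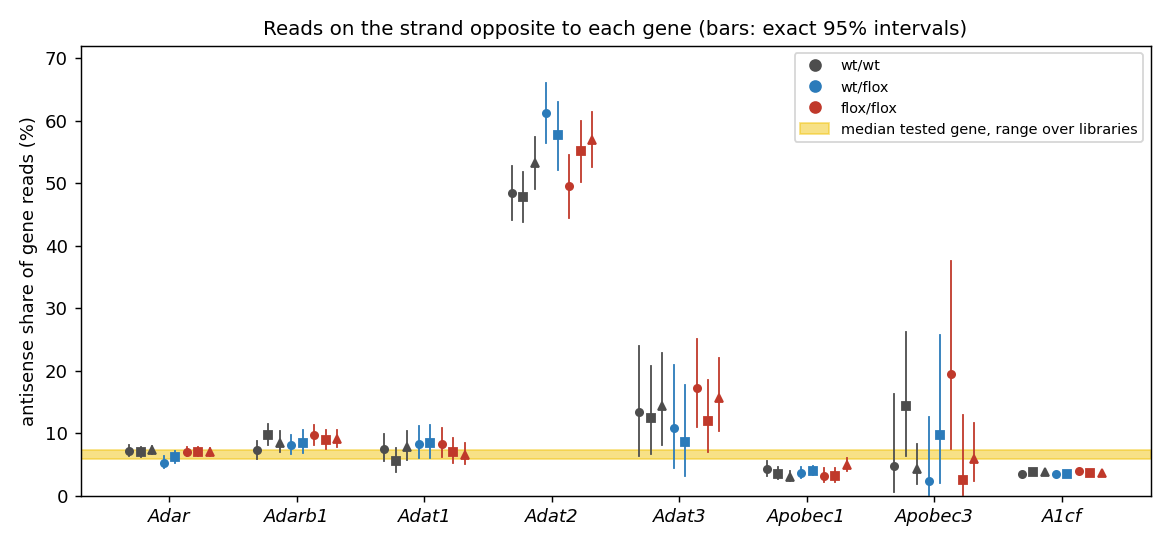
Share of a gene's reads that fell on the opposite strand (y axis, percent) for each of the 8 genes and 8 libraries, with exact 95% intervals for counting error; the band spans the median tested gene, 5.89% to 7.26% across libraries. Adar lies in or near the band, and Adat2 lies between 47.8% and 61.3%.

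The genes most like Adar across the 8 libraries included an RNA sensor and an interferon-stimulated gene of the lists described below. Among 8619 tested genes with a mean of at least 5 CPM, log2(CPM + 1) followed Adar most closely for Ddx58, the gene of the RNA sensor RIG-I (Pearson r = 0.985), Lgals3bp, a secreted glycoprotein (0.963), the guanylate-binding proteins Gbp10 (0.963) and Gbp6 (0.962), and the antiviral factor Samd9l (0.950). These are the highest of many correlations over points that share library and depth, and are given as a description. Ddx58 had 31.9, 38.0 and 67.6 CPM in wt/wt livers, 28.3 and 38.0 in wt/flox livers, then 66.3, 48.7 and 56.2 in flox/flox livers. Gbp10 spread more widely, from 7.01 CPM in wt/flox replicate 1 to 93.0 in wt/wt replicate 3; Gbp genes have close relatives, so their counts are uncertain. None of the 5 was called in any comparison. The summed level of 12 Kupffer cell markers was also highest in wt/wt replicate 3, at 268.6 CPM, and second in flox/flox replicate 3, at 123.1, against 62.8 to 268.6 CPM over wt/wt, 35.1 to 36.6 over wt/flox and 35.0 to 123.1 over flox/flox. In flox/flox against wt/wt 0 of these 12 markers were called higher and 2 lower, beside 14.5% and 14.6% of all tested genes. Their defining marker Clec4f was at 0 in no library, with 8.49 to 62.8 CPM, and the part of these cells in the Adar values was not tested.

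**Figure D5:**
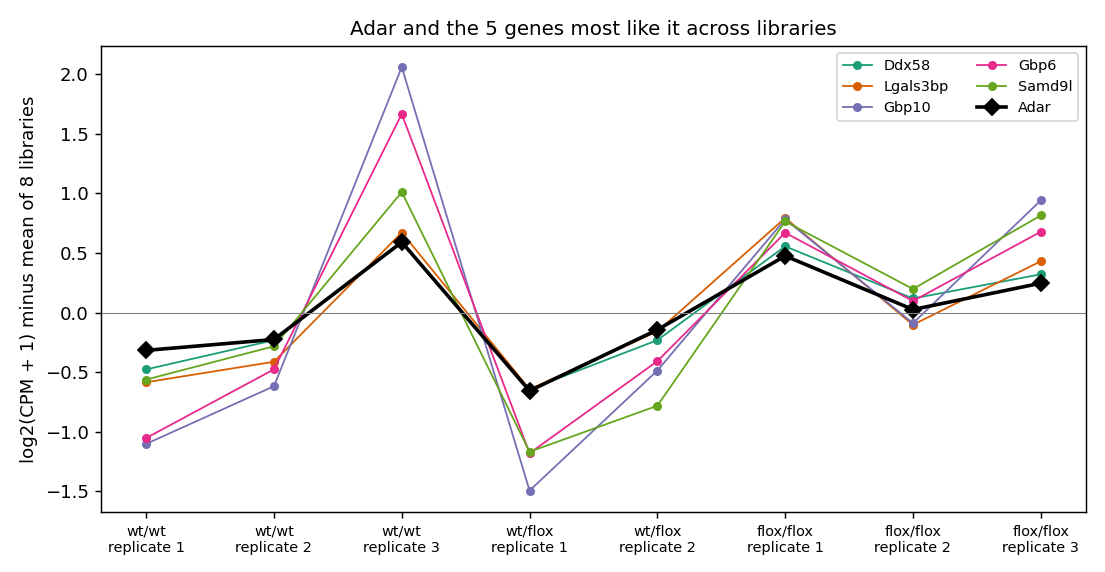
log2(CPM + 1) of Adar (black) and its 5 most similar genes minus each gene's mean over the 8 libraries (y axis), by library (x axis). Lgals3bp peaks in flox/flox replicate 1 and the other 5 lines in wt/wt replicate 3, and all 6 are lowest in wt/flox replicate 1.

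Promoter sequence was looked up because one form of ADAR1 is known to be interferon-inducible. RefSeq windows of 300 bases (250 before and 50 after a start, build GRCm38.p6) matched 7 of the 8 members (all but Adat1), with 3 windows for Adar and 2 for Apobec3. They were searched on both strands for the letters GAAANNGAA followed by a further A, a core of the interferon-stimulated response element, and for GAAANNGAA alone, which the longer motif contains and which was added after the longer one was not found in the Adar windows. The shorter motif is in 8.56% and the longer in 3.44% of the 32851 windows in the table. Of the Adar windows, the one at the third start, chr3:89730468-89730767 (plus strand), had 2 matches to the shorter motif, beginning 249 bases before and 33 bases after the start. One Apobec3 window, chr15:79892158-79892457 (plus strand), had 1 match on the minus strand that lies within a longer match. The other 8 windows of members had none. These 2 windows are printed 5′ to 3′ with the matches to the shorter motif in capitals (in Apobec3 as its reverse complement), since of the 10 windows searched they alone carry it; Adat1 had no window to search.
Adar: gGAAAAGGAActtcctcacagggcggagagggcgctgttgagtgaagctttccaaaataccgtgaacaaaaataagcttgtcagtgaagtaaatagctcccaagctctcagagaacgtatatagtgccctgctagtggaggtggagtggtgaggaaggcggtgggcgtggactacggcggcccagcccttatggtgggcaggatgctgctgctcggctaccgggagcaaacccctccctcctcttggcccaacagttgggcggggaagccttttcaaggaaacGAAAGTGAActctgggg
Apobec3: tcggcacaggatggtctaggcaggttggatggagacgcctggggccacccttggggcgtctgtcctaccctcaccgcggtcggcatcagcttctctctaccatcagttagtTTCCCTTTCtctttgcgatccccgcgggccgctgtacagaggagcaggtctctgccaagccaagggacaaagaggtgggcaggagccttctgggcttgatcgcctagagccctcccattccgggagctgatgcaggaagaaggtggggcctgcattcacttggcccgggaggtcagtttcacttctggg
Of the 5 genes most like Adar, 3 have a window, and those of Ddx58 and Samd9l hold the shorter motif, against 9.76% of 27025 genes. A match is a string of letters and says nothing of binding.

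Adarb1 (ENSMUSG00000020262, chromosome 10, 77290726 to 77418270, minus strand), the gene of ADAR2, was not called in any comparison. It had 13.0, 9.61 and 9.52 CPM in wt/wt livers, 13.4 and 12.1 in wt/flox livers, then 14.4, 11.2 and 13.0 in flox/flox livers. Replicate 1 was the highest library of each group, and the groups overlapped. The log2 fold change of Adarb1 was 0.35 in flox/flox against wt/wt (SE 0.15, 95% interval -0.01 to 0.71, edgeR adjusted p = 0.123) and 0.18 in flox/flox against wt/flox (SE 0.19, edgeR adjusted p = 0.993). Its most similar genes were Dmxl2 (r = 0.952), Sh3bp2 (0.951) and Rbm3, a cold-inducible RNA-binding protein (0.943), none of which was called.

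Adat1 (ENSMUSG00000031949, chromosome 8, 111966908 to 111992302, minus strand), the tRNA-alanine deaminase, was the steadiest member, with its highest library 1.35 times its lowest. Its levels were 5.50, 4.65 and 4.57 CPM in wt/wt livers, 5.28 and 6.06 in wt/flox livers, then 5.93, 5.67 and 6.17 in flox/flox livers. All flox/flox values lay above all wt/wt values. Between them Adat1 had a log2 fold change of 0.30 (SE 0.15, 95% interval -0.05 to 0.65, edgeR adjusted p = 0.168). The genes most like it were Shq1, an assembly factor of pseudouridylation complexes (r = 0.984), Zc3h13, a subunit of the RNA methylation machinery (0.966), and Trub1, a tRNA pseudouridine synthase (0.961). Of these, Zc3h13 was called higher in flox/flox against wt/wt.

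Adat2 and Adat3, whose products act as a pair, had group means that differed in opposite directions, and neither passed the test. Adat2 (ENSMUSG00000019808, chromosome 10, 13552894 to 13563376, plus strand) had 2.81, 2.72 and 2.40 CPM in wt/wt livers, 1.84 and 1.97 in wt/flox livers, then 2.19, 1.65 and 1.65 in flox/flox livers, from 139 to 322 reads. All wt/wt libraries lay above all others. The log2 fold change of Adat2 was -0.44 in flox/flox against wt/wt (SE 0.18, 95% interval -0.87 to -0.02, edgeR adjusted p = 0.107) and -0.57 in wt/flox against wt/wt (SE 0.21, interval -1.05 to -0.09, edgeR adjusted p = 0.102). Within the shared batch mark, flox/flox against wt/flox, the sex-adjusted value for Adat2 was 0.13 (SE 0.23, edgeR adjusted p = 0.993), whereas the group means ran the other way, at 1.83 and 1.91 CPM, and without a sex term it was -0.06 (edgeR adjusted p = 0.928). The 3 genes most like Adat2 were Prmt5, an arginine methyltransferase (r = 0.995), Txnl4a, a spliceosome component (0.992), and Cdk5rap3 (0.983). All 3 were called lower in flox/flox and in wt/flox against wt/wt.

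Adat3 (ENSMUSG00000113640, chromosome 10, 80602880 to 80607654, plus strand) had 0.589, 0.710 and 0.767 CPM in wt/wt livers, 0.678 and 0.909 in wt/flox livers, then 1.12, 1.06 and 1.07 in flox/flox livers, from 58 to 141 reads. The 3 flox/flox libraries were its highest. The log2 fold change of Adat3 was 0.63 against wt/wt (SE 0.27, 95% interval -0.002 to 1.26, edgeR adjusted p = 0.118) and 0.40 against wt/flox (SE 0.34, edgeR adjusted p = 0.993). Per kb, the Adat3 level was 0.186 to 0.284 of the Adat2 level in wt/wt livers, 0.329 and 0.410 in wt/flox livers, and 0.456 to 0.578 in flox/flox, with no overlap of the groups; this ratio was not tested. The counts of Adat3 are uncertain. In GENCODE M21, 91.99% of its exonic bases also belong to Gm49322 on the same strand and 8.01% to Scamp4. Gm49322 is not among the counted genes and the annotation used for counting is not known, so any effect was not tested. The genes most similar to Adat3 were Phf20, a chromatin reader (r = 0.966), Il22ra1, a receptor subunit for interleukin-22 (0.959), and the kinase gene Frk (0.957). All were called higher in flox/flox against wt/wt.

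About as many reads of Adat2 fell on the opposite strand as on its own. The antisense share was 49.8% ± 3 for wt/wt, 59.5% ± 2.53 for wt/flox and 53.9% ± 3.92 in flox/flox (SD, n = 3, 2 and 3), from 190 to 300 antisense reads per library. Pex3, a peroxisome assembly gene at 19.9 to 31.8 CPM, lies on the opposite strand. It shares 249 exonic bases with Adat2, 16.98% of the exonic bases of Adat2. The part of Pex3 transcripts in the antisense counts was not tested. By group mean, the lowest antisense shares were those of A1cf, at 3.46% to 3.72%, and Apobec1, at 3.6% to 3.8%, whose ranges overlapped.

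Apobec1 (ENSMUSG00000040613, chromosome 6, 122577792 to 122602444, minus strand), the cytidine deaminase of Apob editing, was the one member called. It had 11.4, 11.9 and 15.7 CPM in wt/wt livers, 19.6 and 47.4 in wt/flox livers, then 11.7, 9.63 and 11.6 in flox/flox livers. Both wt/flox libraries lay above all others, and they differed from each other more than the other groups did among themselves. Apobec1 rose in wt/flox against wt/wt by a log2 fold change of 1.42, or 2.67-fold (SE 0.36, 95% interval 0.57 to 2.27, edgeR adjusted p = 0.0424). In flox/flox against wt/flox its log2 fold change was -1.70 (SE 0.40, interval -2.64 to -0.76, edgeR adjusted p = 0.993; DESeq2 adjusted p = 0.0307), and flox/flox against wt/wt gave -0.28 (SE 0.32, edgeR adjusted p = 0.53).

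The Apobec1 call rested on most single libraries. Without wt/flox replicate 2 its log2 fold change was 0.65 (edgeR adjusted p = 0.192), and without wt/flox replicate 1 it was 1.92 (edgeR adjusted p = 0.0776). It was also lost without wt/wt replicate 1 or 2 or flox/flox replicate 2 or 3 (edgeR adjusted p = 0.132, 0.156, 0.0516 and 0.0645), and without either of the first 2 or either wt/flox library no gene of the 14728 was called in that comparison. The genes most like Apobec1 were Slc25a30, a mitochondrial carrier (r = 0.904), Gtf2ird1 (0.900) and Adck5 (0.897), and each had its highest value in wt/flox replicate 2. Slc25a30 had 79.5 CPM there and 8.65 to 16.4 in the other libraries. None of the 3 was called.

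A1cf (ENSMUSG00000052595, chromosome 19, 31868764 to 31948995, plus strand), the APOBEC1 complementation factor, was abundant in every library. It had 260.7, 280.4 and 258.1 CPM in wt/wt livers, 318.2 and 323.7 in wt/flox livers, then 227.8, 309.5 and 256.8 in flox/flox livers, from 20524 to 34636 reads. The 2 wt/flox libraries were again the highest. The log2 fold change of A1cf was 0.31 in wt/flox against wt/wt (SE 0.15, edgeR adjusted p = 0.207), -0.36 in flox/flox against wt/flox (SE 0.18, edgeR adjusted p = 0.993) and -0.06 in flox/flox against wt/wt (SE 0.14, 95% interval -0.39 to 0.28, edgeR adjusted p = 0.785). Per kb, A1cf stood 4.9 times above Apobec1 in wt/flox replicate 2 and 11.7 to 23.0 times in the other libraries. Genes most like it were Med12l, a Mediator subunit (r = 0.945), Elp4, an Elongator subunit (0.933), and Tymp, thymidine phosphorylase (0.930). Med12l was called higher in wt/flox against wt/wt.

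Apob, the editing target, rose against wt/wt in both groups with a floxed allele. Of 8 C-to-U cofactors and their target, all tested, 1 was higher and 2 were lower in flox/flox against wt/wt, beside 14.5% and 14.6% of all tested genes, 0 were called in flox/flox against wt/flox, and 1 was higher and 1 lower, Apob and Hnrnpab, in wt/flox against wt/wt; the median log2 fold changes were 0.00, -0.24 and 0.13, against 0.01, 0.00 and -0.05 over all tested genes. Apob, the lipoprotein gene whose mRNA APOBEC1 edits, had 10748, 10909 and 10305 CPM in wt/wt livers, 31825 and 32491 in wt/flox livers, then 27176, 33551 and 23875 in flox/flox livers. Every library with a floxed allele exceeded every wt/wt library. These libraries also carry the other batch mark, so genotype and batch cannot be told apart. Libraries did not overlap for 45.0% of all tested genes in flox/flox against wt/wt and 55.1% in wt/flox against wt/wt. In flox/flox against wt/flox, which share a mark, Apob had a log2 fold change of -0.19 (SE 0.26, edgeR adjusted p = 0.993). Apob rose 2.64-fold in flox/flox (edgeR adjusted p = 0.00519) and 3.02-fold in wt/flox (edgeR adjusted p = 0.0155) against wt/wt, comparisons that share their control libraries. With the 2 contradicted libraries left out, the first log2 fold change of Apob was 1.20 (edgeR adjusted p = 0.0534), and the second was lost without wt/wt replicate 1 or 2 or either wt/flox library (edgeR adjusted p = 0.0622, 0.0963, 0.0776 and 0.11). The RNA-binding proteins Hnrnpab and Khsrp fell in flox/flox by 2.09-fold (edgeR adjusted p = 0.00422) and 1.5-fold (edgeR adjusted p = 0.0116), the second not without wt/wt replicate 3 (edgeR adjusted p = 0.0866) or the contradicted libraries (edgeR adjusted p = 0.0586). In wt/flox Hnrnpab fell 1.71-fold against wt/wt (edgeR adjusted p = 0.0274), a call lost without the same 4 libraries as that of Apob. Rbm47, the other APOBEC1 cofactor, had a log2 fold change of 0.09 (SE 0.17, edgeR adjusted p = 0.719). The summed level of 10 hepatocyte markers was 97010 to 116236 CPM in wt/wt, 130185 to 150698 in wt/flox and 146710 to 218944 in flox/flox, with 3 of 10 called higher in flox/flox against wt/wt, and its part in the Apob result was not tested.

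Apobec3 (ENSMUSG00000009585, chromosome 15, 79891659 to 79915906, plus strand), the retrovirus restriction factor, was the lowest and most variable member. It had 0.406, 0.406 and 1.62 CPM in wt/wt livers, 0.480 and 0.398 in wt/flox livers, then 0.278, 0.357 and 0.850 in flox/flox livers, from 25 to 178 reads. Replicate 3, the youngest mouse, was the highest of both wt/wt and flox/flox. Apobec3 had a log2 fold change of -1.02 in flox/flox against wt/wt (SE 0.42, 95% interval -1.99 to -0.05, edgeR adjusted p = 0.104) and -0.55 without wt/wt replicate 3 (edgeR adjusted p = 0.573). Against wt/flox the fitted value was -0.97 (SE 0.53, edgeR adjusted p = 0.993), although the flox/flox mean was 0.495 CPM and the wt/flox mean 0.439, since the fit adjusts for sex and wt/flox had no female mouse. Without wt/wt replicate 3, the value of -0.55 rests on flox/flox replicate 1 alone. Flox/flox replicates 2 and 3 were then the only female libraries by transcripts. The genes most similar to Apobec3 were the filamin gene Flna (r = 0.950), Kctd12 (0.937) and the integrin gene Itga9 (0.928). The last 2 were called lower in flox/flox against wt/wt. Kupffer cell markers, given above, and 10 monocyte markers also peaked in wt/wt replicate 3. The latter summed to 16.4 to 61.2 CPM in wt/wt, 9.79 to 10.8 in wt/flox and 9.68 to 34.2 in flox/flox. Of the monocyte markers 0 of 10 were higher and 2 lower in flox/flox against wt/wt, beside 14.5% and 14.6% of all tested genes. The part of these cells in the Apobec3 values was not tested.

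Correlations among the 8 genes ran from -0.67 to 0.78. The closest pair was Adarb1 and Adat1 (Pearson r of log2(CPM + 1) = 0.78 over 8 libraries), and the most opposed pairs were Adar with A1cf and Adat2 with Adat3. These are descriptions of 8 points that share library and depth.

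Other genes of the pathway were read from the same fit, beginning with relatives of the deaminases. Of 11 other deaminase family genes 5 passed the filter. Of these, 0 were higher and 1 was lower in flox/flox against wt/wt, beside 14.5% and 14.6% of all tested genes. Their median log2 fold change there was -0.63 against 0.01 over all tested genes, and none was called in the other comparisons. Ada, the deaminase of free adenosine, had 0.578, 0.507 and 0.931 CPM in wt/wt livers and 0.300, 0.295 and 0.296 in flox/flox, and fell 2.41-fold (edgeR adjusted p = 0.027). Its call was lost when any one of these 6 libraries was left out (edgeR adjusted p = 0.0514 to 0.261) and without both contradicted libraries (0.0906).

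Of 18 partners and regulators of A-to-I editing, all tested, 1 was higher and 5 were lower in flox/flox against wt/wt, 0 in flox/flox against wt/flox, and 2 were lower in wt/flox against wt/wt. Of all tested genes 14.5% were higher and 14.6% lower in the first comparison and 6.9% lower in the last, so the calls are read against a high background. The median log2 fold changes were -0.10, -0.03 and -0.06. Dicer1, the microRNA-processing nuclease, was the higher gene, by 1.39-fold (edgeR adjusted p = 0.0334), a call lost without any one wt/wt or wt/flox library, flox/flox replicate 1 or the contradicted libraries. Stau1, which binds double-stranded RNA, fell 1.41-fold (edgeR adjusted p = 0.014) and the splicing factor Srsf9 1.53-fold (edgeR adjusted p = 0.0231), but both calls were lost on leaving out flox/flox replicate 1, wt/wt replicate 3 or the contradicted libraries, and Srsf9 also on leaving out wt/wt replicate 2. Rps14, a ribosomal protein, stood at 132.2 ± 16.9 CPM in wt/wt and 55.5 ± 6.89 in flox/flox (SD, n = 3 each) and fell 2.28-fold (edgeR adjusted p = 0.00391); ribosomal protein genes have many processed copies, so its count is uncertain. Aimp2, a scaffold of tRNA synthetases that lowers ADAR2, stood at 5.46 ± 0.286 and 2.53 ± 0.431 CPM and fell 2.13-fold (edgeR adjusted p = 0.00754), but not without wt/wt replicate 3 (edgeR adjusted p = 0.0559). In wt/flox Rps14 and Aimp2 had 77.0 ± 11.9 and 3.29 ± 0.313 CPM, and Rps14 was called lower there. Without wt/wt replicate 3 the list had 0 higher and 2 lower genes in flox/flox against wt/wt, Rps14 among them, where 8.47% of all genes were lower. On leaving out flox/flox replicate 1 or the 2 contradicted libraries it had 0 higher and 3 lower, Rps14 and Aimp2 among them, where 6.89% and 4.6% of all genes were lower.

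Of 16 genes of tRNA wobble base modification, all tested, 3 were higher and 1 was lower in flox/flox against wt/wt, beside 14.5% and 14.6% of all tested genes, and none was called in the other comparisons. The median log2 fold changes were -0.04, 0.06 and -0.07. The lower gene was Gtpbp3, a mitochondrial tRNA modifier (1.44-fold, edgeR adjusted p = 0.0405), whose call was lost on leaving out any single library other than flox/flox replicate 2 and wt/wt replicate 3, and without the contradicted pair. Qtrt2, a subunit of the queuosine-inserting enzyme, rose 1.97-fold (edgeR adjusted p = 0.00844), and Alkbh8, a wobble uridine modifier, 1.36-fold (edgeR adjusted p = 0.0275). Without flox/flox replicate 1 the list had 0 calls in either direction, and Qtrt2 and Alkbh8 were lost (edgeR adjusted p = 0.0794 and 0.183), as they were without the 2 contradicted libraries (0.102 and 0.314); Alkbh8 was also lost without any one wt/wt library or flox/flox replicate 2 (edgeR adjusted p = 0.0529 to 0.0857).

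Transcripts with known A-to-I recoding sites showed 1 higher and 1 lower gene among 10 tested of 12 in flox/flox against wt/wt, beside 14.5% and 14.6% of all tested genes, none in flox/flox against wt/flox and 1 lower, Igfbp7, in wt/flox against wt/wt, with medians of 0.10, 0.04 and 0.06. Igfbp7, a secreted binding protein expressed in endothelium, fell 2.17-fold (edgeR adjusted p = 0.015). Igfbp7 was not called without flox/flox replicate 1 (edgeR adjusted p = 0.101) or without the 2 contradicted libraries (0.214), and in both cases the list had 0 calls. Without wt/wt replicate 3 the list had 2 higher, Cog3 among them, and 1 lower, beside 9.28% and 8.47% of all genes. Beside Igfbp7, 10 of 12 sinusoidal endothelial markers were lower in flox/flox against wt/wt and 7 of 12 in wt/flox against wt/wt. Of all tested genes 14.6% and 6.9% were lower in these comparisons. The marker sums were 197.4 to 315.8 CPM in wt/wt, 99.6 to 113.2 in wt/flox and 86.9 to 182.1 in flox/flox. The defining marker of these cells, Stab2, was at 0 in no library, and the part of these cells in the result was not tested.

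Sensors of double-stranded RNA were not called in any comparison by edgeR, DESeq2 or limma-voom. Of 8 sensor genes counted, 7 were tested. In edgeR 0 of them had an unadjusted p under 0.05 in any of the 3 comparisons. Of all tested genes 42.8%, 3.56% and 32.8% did. The median log2 fold changes of the sensor genes were -0.16, 0.30 and -0.35. Ifih1, the deleted gene, had 0 to 4 reads per library and did not pass the filter. The sensor gene of smallest p was Tlr3, an endosomal receptor, with a log2 fold change of 0.50 in flox/flox against wt/wt (SE 0.29, edgeR adjusted p = 0.232). Without wt/wt replicate 3, 1 sensor gene was called higher in that comparison, Ddx58, beside 9.28% of all genes. With the sex term that call rests on flox/flox replicate 1, at 66.3 CPM, against 31.9 and 38.0 in wt/wt replicates 1 and 2.

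Interferon-stimulated genes, the group that includes Adar's neighbour Samd9l, depended on which libraries entered. All 20 were tested. In flox/flox against wt/wt edgeR called 0 of them, and 0 had an unadjusted p under 0.05, where 42.8% of all tested genes did. DESeq2 called 0 there and limma-voom 1, Isg15, as lower. Without wt/wt replicate 3, 9 of the 20 were higher and 0 lower, beside 9.28% and 8.47% of all genes; Ifit1, Oasl2, Rsad2 and Samd9l were among the 9. Without flox/flox replicate 1, 0 were higher and 2 lower, Ifit1 and Isg15, beside 5.46% and 6.89%. Without the 2 contradicted libraries 0 were higher and 5 lower (Ifit1, Irf7, Isg15, Oasl2 and Trim30a), beside 2.34% and 4.6%. Ifit1 and Oasl2 were thus called in opposite directions depending on the libraries left out. In the fits without flox/flox replicate 1 or the contradicted libraries, the remaining flox/flox libraries were female by transcripts. The only female wt/wt library was replicate 3, so with the sex term the lower calls of those fits rest on it. It had 91.7 CPM of Ifit1 and 30.8 of Oasl2, against 7.45 and 9.27, and 0.568 and 0.693, in wt/wt replicates 1 and 2. In the fit without wt/wt replicate 3, flox/flox replicates 2 and 3 were the only female libraries. With the sex term, the higher calls there rest on flox/flox replicate 1 alone, a library at odds with its labelled sex. In wt/flox against wt/wt, leaving out flox/flox replicate 1 or wt/wt replicate 3 gave 1 lower gene, Isg15, and leaving out both contradicted libraries 3, with Ifit1 and Ifit3. With all libraries the medians of the list were 0.18, 1.26 and -1.05 in the 3 comparisons, against 0.01, 0.00 and -0.05 over all tested genes. In the last 2 of these, the comparisons with wt/flox, edgeR, DESeq2 and limma-voom called 0 of 20. There edgeR counted 1 each at an unadjusted p under 0.05, beside 3.56% and 32.8% of all tested genes. Parp14, an ADP-ribosyltransferase and the one of smallest p, had 39.5, 45.4 and 102.0 CPM in wt/wt livers, 43.6 and 68.2 in wt/flox livers, then 131.0, 77.4 and 123.2 in flox/flox livers. Its flox/flox values overlapped with wt/wt through replicate 3 of the latter. Parp14 gave a log2 fold change of 0.80 (SE 0.37, edgeR adjusted p = 0.141), and 1.62 without wt/wt replicate 3 (edgeR adjusted p = 0.0239).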

How the data were processed

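Per the file headers, the authors deposited raw sense and antisense read counts of each gene, and each table covers 1 library. GRCm38 (mm10) and DESeq2 are named in the submitters' processing notes; how reads were aligned and counted is not given in the sources used here. The tables have 25229 genes, and 5 rows that name no gene were left out. Of the reads tallied, 22.2% to 40% lay in no gene and 0.317% to 0.668% were ambiguous. Reads aligned to several places were tallied apart and made up 3.92% to 10.9%, so genes with near-identical copies are uncertain.

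Sense counts were tested with edgeR 4.0.16 in R 4.3.3 (quasi-likelihood F test, TMM, filterByExpr, two-sided, Benjamini-Hochberg at 0.05 over all 14728 genes). All 8 libraries entered 1 fit with genotype and the sex shown by transcripts, since labels and transcripts disagreed for 2 libraries. Antisense counts were fitted likewise with the sense library sizes. Alternatives used limma 3.58.1 (voom), DESeq2 1.42.0, other scalings, filters, terms and library sets. The test was checked on simulated data. No 2 libraries of a group agreed within sampling noise. Nothing says more of the samples than that each is a mouse of its genotype, so p-values measure the spread between these samples.

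Exon lengths and coordinates come from GENCODE M21, matched for 24369 genes (96.6%). A count of 0 allows up to 3 reads, or 0.0227 to 0.0395 CPM; such limits and the exact 95% (Clopper-Pearson) intervals of shares cover counting error only. The named genes are the 8 members; in each list up to 3 called genes of smallest p in flox/flox against wt/wt, or 1 where none was called; the 5 genes most like Adar and 3 most like each other member, leaving out predicted genes and small RNAs; and genes for the sex and cell type checks. Other named genes (Rbm47, Ifih1, Dicer1, Stau1, Srsf9, Gtpbp3, Cog3, Chrnb2, Pex3, Scamp4, Gm49322 and interferon-stimulated genes other than Parp14 and Samd9l) were chosen after their values were seen. Some genes that the naming rule covers are counted in their lists but not reported here by name. Members and lists were chosen with earlier results of these data known.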

Additional observations from a re-analysis of the deposited data

How the results depend on the processing

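In flox/flox against wt/wt, 4282 genes were called, 1786 with the replicate number as a block beside sex by transcripts (4794 with the block and no sex term), 2835 with the trend with exon length removed, 1054 without the 2 contradicted libraries, and 1811 to 3866 when each library was left out in turn (2460 and 2585 without replicates 2 and 3 of wt/wt, 1811 without flox/flox replicate 1). The members called there were 2 when libraries were scaled by size alone (Adat2, log2 fold change -0.77, and A1cf, -0.39, edgeR adjusted p = 0.0236 and 0.0443). They were 1 with limma-voom (Apobec3, -1.24, adjusted p = 0.0465) and 0 to 0 when each library was left out. With the exon-length trend removed Adat2 moved from -0.44 to -0.119 (edgeR adjusted p = 0.687) and Adarb1 from 0.35 to 0.113 (edgeR adjusted p = 0.614). Adat3 moved the other way, from 0.63 to 0.925 (edgeR adjusted p = 0.0519). Scaling by size alone moved the median of all genes by -0.33 in this comparison and by -0.35 in wt/flox against wt/wt.

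In flox/flox against wt/flox, 0 genes were called, 16 with DESeq2 (1 of them a member, Apobec1), 1 with only these groups in the fit, 1 without the contradicted libraries, and 0 to 2 when each library was left out, with 0 to 0 members. In wt/flox against wt/wt, 2132 genes were called, 3907 with library size alone (356 higher and 3551 lower, against 1116 and 1016), 1300 with the labelled sex, 263 with the length trend removed, 0 with the replicate block and sex by transcripts (1439 with the block and no sex term), and 0 to 2421 when each library was left out. The member count of 1, Apobec1, became 0 with limma-voom (log2 fold change 1.29, adjusted p = 0.0588), with the replicate block (1.30, edgeR adjusted p = 0.0848, and 1.40, edgeR adjusted p = 0.056, without a sex term) and with the length trend removed (1.58, edgeR adjusted p = 0.0514), and was 0 to 1 when each library was left out. With library size alone Apobec1 also lost its call (1.08, edgeR adjusted p = 0.0823), and the 1 member called was Adat2 (-0.92, edgeR adjusted p = 0.0241).

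The value of Adar in flox/flox against wt/wt lay between -0.47 and 0.76 and kept its sign in 19 of 23 alternatives, against wt/flox between -0.36 and 0.88 (21 of 23), and in wt/flox against wt/wt between -0.69 and -0.08 (23 of 23). Its antisense values lay between -0.54 and 0.77, between -0.11 and 1.21, and between -1.10 and -0.34 when each library was left out, and the difference in antisense share between -0.24 and -0.05 percentage points. Apob, Igfbp7, Khsrp, Qtrt2, Alkbh8 and Ada lost their call in flox/flox against wt/wt without the contradicted libraries, and Ada, Alkbh8, Igfbp7 and Khsrp under the replicate block with sex.

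Samples with the same replicate number share a labelled age, not a litter or day. Their deviations from the group means correlated at 0.01 to 0.443, not over 0.1 in every pair, and wt/wt replicate 2 correlated best with flox/flox replicate 1 (0.331), so the numbers were not taken to pair the samples. A filter at a mean of 1 CPM gave no value for Adat3 and Apobec3, whose low counts limit them most.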
